A study of Homo sapiens with 24 samples.

Results

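Replicate 3 of the ventricular cultures was compared with replicates 1 and 2 in cells of 3 targets, which gave 9 of the 24 RNA sequencing libraries of the study: 3 from replicate 3 and 6 from replicates 1 and 2. The split was chosen from the measured values themselves, because the libraries of replicate 3 had stood apart from the others along a principal component of the same libraries. Differences between these 9 libraries are therefore given as a description, with a standard error but no p-value. The 12 libraries of the atrial condition played no part in that choice, and the same contrast was tested in them.

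All libraries came from HES3, a human embryonic stem cell line, carrying GFP at NKX2-5 and mCherry at NR2F2 as reporters. The cells were edited with CRISPR-Cas9 at TRAC, a T-cell receptor gene serving as the control target, or at LHX2, ZNF503 or ZNF711, and were grown as embryoid bodies under Wnt modulation for up to 14 days. AM cultures received retinoic acid at day 4 and VM cultures did not; AM and VM are not spelled out in the labels and were read as atrial and ventricular. Each target had 3 replicates in each condition. The 9 libraries compared were thus VM TRAC, VM LHX2 and VM ZNF503, all without retinoic acid, and all edited, the controls included. The labels do not say whether replicates were separate cultures or what a replicate number stands for, so replicate numbers cannot be told apart from culture run, day, extraction or library batch, and p-values measure only the spread between these samples. They also do not say whether a targeted line was 1 clone or a pool.

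Directed differentiation of pluripotent cells into heart muscle passes through mesendoderm, a precursor of both heart mesoderm and endoderm. Embryoid bodies can therefore hold endoderm-like cells next to cardiomyocytes. Visceral endoderm and fetal liver both secrete alpha-fetoprotein, apolipoproteins, fibrinogen and other plasma proteins under the control of HNF4A, FOXA and other transcription factors. Cardiomyocytes are recognised by their contractile proteins, by the proteins that cycle calcium and by ion channels. In bulk RNA, fewer cells of a type and less RNA per cell cannot be told apart.

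The 24 libraries held 2899786 to 7438010 counts, and the 9 compared here 4194908 to 7438010. The RNA of the targeted genes did not follow the split, with log2 fold changes of replicate 3 over replicates 1 and 2 of 0.56 for LHX2 (standard error 0.53), -0.33 for ZNF503 (standard error 0.30) and -0.04 for ZNF711 (standard error 0.16), and TRAC did not pass the filter on low counts. ZNF503 had 45.1, 42.5 and 19.1 CPM (gene counts scaled to a common library size with the trimmed mean of M values) in replicates 1, 2 and 3 of the libraries labelled VM ZNF503. It had 8.62 to 16.7 CPM in the libraries of the other 2 targets. Those libraries are therefore named by their label. The labelled cell type is cardiomyocyte, and TNNT2 was present in all 9 libraries, at 157 to 651 CPM. Across the 12 VM libraries, the first principal component of the 1000 most variable genes held 58.5% of the variance. Replicates 1 and 2 of the 3 targets scored -32.7 to -23.4 on it, and replicate 3 scored 10.9 in LHX2, 27 in ZNF503 and 36.2 in TRAC. All 3 VM ZNF711 libraries, which the contrast leaves out, lay with replicate 3, from 17.6 to 40.9. The second component, with 11.8%, set the replicate 1 libraries of the 3 targets (11.1 to 21.7) apart from the replicate 2 libraries (-19.2 to -12.7).

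**Figure D1:**
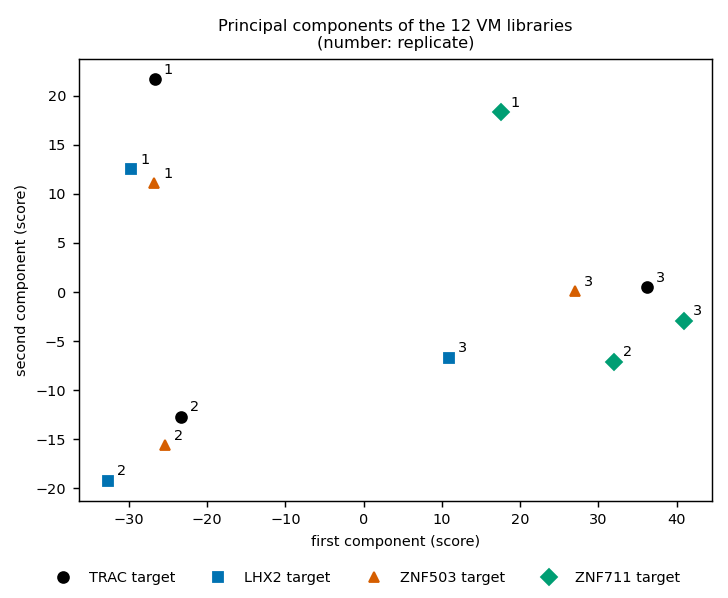
Scores of the 12 VM libraries on the first and second principal components of the 1000 most variable genes; each point is 1 library, coloured by target and numbered by replicate. Replicates 1 and 2 of TRAC, LHX2 and ZNF503 lie at -32.7 to -23.4 on the first component, while replicate 3 and all ZNF711 libraries lie at 10.9 to 40.9.

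Among 15887 genes, 744 were at least 2-fold higher in replicate 3 with all 3 libraries above all 6 others (4.68% of genes tested), and 479 were at least 2-fold lower with all 3 below all 6 (3.02%). Genes of these kinds are called higher and lower below. Of the higher genes 227 (30.5%) differed by at least 4-fold, against 73 of the lower genes (15.2%). The size of the difference varied with the target. The median log2 difference of the higher genes was 1.74 in TRAC, 1.49 in ZNF503 and 1.37 in LHX2, and that of the lower genes was -1.41, -1.23 and -1.09. The count of lower genes was 834 without VM LHX2 replicate 3 and 732 without VM ZNF503 replicate 3. Close to the 2-fold limit, NR2F2 (1.02) and CDH1 (1.04) were inside it, and GJA1 (0.97) was outside, as was FDFT1, which lay just under the limit.

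Liver-type secretory genes gave the clearest pattern. All 22 genes of a list of hepatic and visceral endoderm products were higher in replicate 3, with a median log2 fold change of 2.60 (range 1.55 to 3.32), where the median of all genes tested was -0.01. Together they took 1.43% to 3.67% of a library's counts in replicate 3 and 0.244% to 0.639% in replicates 1 and 2. AFP and APOB had been named as markers of the difference when it was chosen, and other members of the list rest on the same libraries, so the count carries no evidence of its own. AFP (alpha-fetoprotein, the main plasma protein of the fetus, chr4:73436221-73456174, GRCh38.p14) had 2010 and 1820 CPM in VM TRAC replicates 1 and 2 and 14300 in replicate 3. In VM LHX2 it had 1250, 903 and 5220 CPM, and in VM ZNF503 1510, 1520 and 9460 CPM. The lowest library of replicate 3 was thus above the highest of the 6 other libraries, and the fitted difference was 2.61 on the log2 scale (standard error 0.15). APOB, the structural protein of lipoproteins that carry fat out of liver, gut and yolk sac (chr2:21001429-21044073, GRCh38.p14), had 1470, 898 and 5890 CPM in TRAC, 808, 366 and 1820 in LHX2 and 1130, 628 and 3760 in ZNF503, a log2 fold change of 2.02 (standard error 0.24). Here replicate 1 also exceeded replicate 2 in every target, and replicate 3 of LHX2 stood only a little above replicate 1 of TRAC.

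The promoters of AFP and ALB (albumin, the main plasma protein of the adult) are shown because the genes are neighbours on chromosome 4 and both were higher in replicate 3. The 250 bases before the transcription start, from RefSeq (GRCh38.p14), are written 5′ to 3′ on the gene's strand, with capitals for TATAAA, the letters of a TATA box, a general promoter element. They lie at chr4:73404037-73404286 (plus strand) for ALB and chr4:73435971-73436220 (plus strand) for AFP.
ALB: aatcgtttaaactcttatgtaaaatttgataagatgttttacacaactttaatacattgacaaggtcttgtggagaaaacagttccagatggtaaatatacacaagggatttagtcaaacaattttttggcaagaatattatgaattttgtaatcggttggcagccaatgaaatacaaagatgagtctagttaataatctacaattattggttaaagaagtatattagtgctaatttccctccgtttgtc
AFP: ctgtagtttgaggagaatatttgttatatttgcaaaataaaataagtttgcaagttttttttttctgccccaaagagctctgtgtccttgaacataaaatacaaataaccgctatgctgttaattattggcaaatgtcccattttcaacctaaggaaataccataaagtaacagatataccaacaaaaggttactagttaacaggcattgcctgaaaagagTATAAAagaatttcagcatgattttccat
TATAAA begins 29 bases before the start in AFP and is not in this window of ALB on either strand. On either strand it occurred in the 250 bases before the start in 3763 of 35116 RefSeq promoter entries (10.7%). Of the 22 secretory genes 18 had a promoter in the table, and AFP, RBP4, MTTP and FABP1 held it. Of 14 sarcomere genes with a promoter, MYH6 and ACTC1 held it. A listed gene counted if any of its promoter entries held the motif, so these counts are not on the same footing as the 10.7% per entry. The motif was picked after the expression values were known, and a match describes the letters and not the binding of a factor.

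Fibrinogen and albumin RNA followed AFP. FGA, the alpha chain of fibrinogen, had 68.3, 76.8 and 917 CPM in replicates 1, 2 and 3 of TRAC, 37.6, 27.3 and 205 in LHX2 and 88.6, 70.2 and 603 in ZNF503 (log2 fold change 3.11, standard error 0.16). FGB, the beta chain, had 61.1, 76.6 and 819 CPM in TRAC, 41.2, 24.8 and 195 in LHX2 and 50, 61.7 and 524 in ZNF503 (3.15, standard error 0.17). For FGG, the gamma chain, the log2 fold change was 3.14 (standard error 0.18). ALB had 8.47 to 29.8 CPM in replicates 1 and 2 and 68.4, 168 and 188 CPM in replicate 3 of LHX2, ZNF503 and TRAC (2.59, standard error 0.19). In these 4 genes all 3 libraries of replicate 3 stood above all 6 others. Among apolipoproteins, APOA4 (3.19), APOA1 (2.86) and APOC3 (2.81) differed most and APOM (1.55) and APOE (1.75) least. TTR (2.99) and RBP4 (2.67), which carry thyroid hormone and retinol in plasma, AMBP (2.72), the fetuin AHSG (2.56), the protease inhibitor SERPINA1 (2.48), the iron carrier TF (2.33) and MTTP (2.27), which loads lipid onto APOB, lay in between. The same 22 genes held 1.75% to 3.88% of counts in the 3 VM ZNF711 libraries and 0.0564% to 0.339% in the 12 AM libraries.

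**Figure D2:**
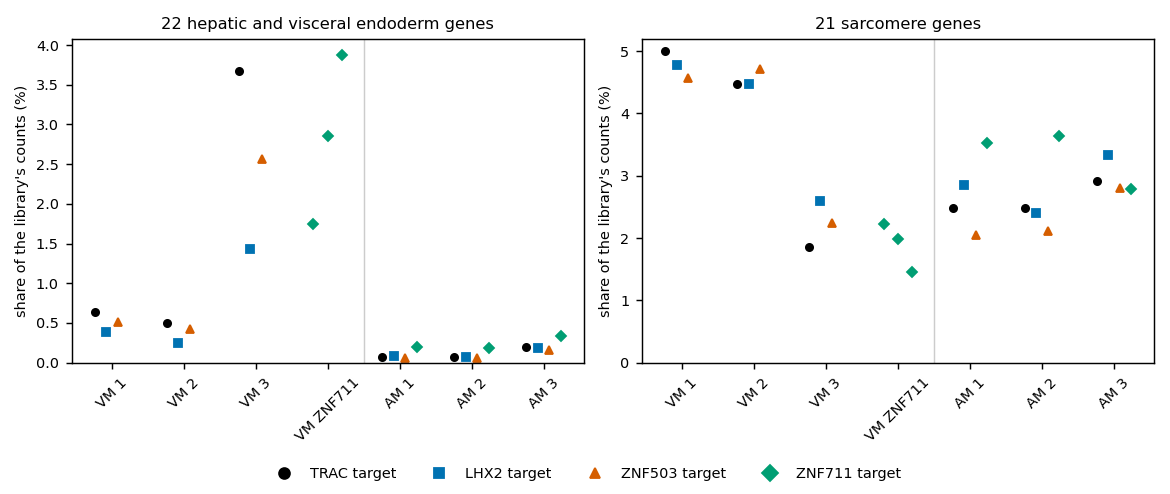
Share of each library's counts (%) taken by the 22 hepatic and visceral endoderm genes (left) and by the 21 sarcomere genes (right); each point is 1 library, placed by condition and replicate number, with the 3 VM ZNF711 libraries in a column of their own. VM replicate 3 lies at 1.43% to 3.67% and 1.86% to 2.6%, and VM replicates 1 and 2 lie at 0.244% to 0.639% and 4.48% to 5.01%. TTN and MYH6 make up most of the sarcomere counts in these VM replicates.

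Transcription factors of endoderm and foregut were higher as well, from much lower levels. Of 17 listed, 13 passed the filter on low counts and 10 of these were higher, with a median log2 fold change of 1.96. HNF4A, a nuclear receptor that maintains hepatocyte identity, had 24.9, 17.3 and 121 CPM in TRAC, 12, 6.78 and 40.9 in LHX2 and 20.3, 12.8 and 67.9 in ZNF503 (2.24, standard error 0.19). The pioneer factors FOXA1 (3.45), FOXA2 (1.96) and FOXA3 (1.62) were all higher. CEBPA, a factor of hepatocyte maturation, stood at 2.16, the nuclear receptor NR5A2 at 2 (standard error 0.41), and HHEX, an early foregut factor, at 1.55. CDX2, a factor of hindgut and extraembryonic lineages, had 0.212 to 3.9 CPM in replicates 1 and 2 and 9.17, 18.2 and 27.9 CPM in replicate 3 of LHX2, ZNF503 and TRAC (3.42, standard error 0.36). Genes this low outside replicate 3 could pass the filter through it, so the count and median of this list describe those that passed. The median was 1.66 with no filter beyond 1 count and 1.8 with a filter at 1 CPM in 3 libraries. PROX1 (-0.80) and GATA6 (-0.45), which cardiac cells also use, were not higher, and ONECUT1 (1.66) overlapped between the groups. SOX17, HNF4G, NR1H4 and EOMES did not pass the filter; SOX17, a defining factor of definitive endoderm, had 0.616 to 2.37 CPM in the 9 libraries.

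Epithelial genes moved less. Of 15 listed, 14 passed the filter and 9 were higher, where 4.68% of all genes tested were. The median of the list was 1.11. VIL1, which bundles actin in the brush border of gut and yolk sac epithelium, had the highest log2 fold change of the list at 2.37 (standard error 0.25). EPCAM (1.30), the claudins CLDN3 (1.38) and CLDN4 (1.37), the keratins KRT18 (1.21) and KRT8 (1.12), the protease ST14 (1.17), the factor ELF3 (1.11) and E-cadherin CDH1 (1.04) followed. LAMA1, a basement membrane laminin, differed by 0.07. Of 12 genes of cholesterol synthesis and uptake, 8 were higher, with a median of 1.14, among them DHCR7 (1.86, standard error 0.14), which makes the last step of cholesterol synthesis, INSIG1 (1.73), which holds back the activation of the pathway's transcription factors, and the demethylating enzyme MSMO1 (1.64).

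The 12 genes with the highest log2 fold changes, at 50 or more counts in each library of replicate 3, were CTSE, DPP4, VTN, FETUB, HKDC1, APOA4, FGB, FGG, SLC7A7, FGA, MS4A10 and HSPA6, and 5 of them were on the secretory list. CTSE, an aspartic protease of stomach and gut epithelium, had 2.25, 5.55 and 50.9 CPM in TRAC, 2.06, 1.27 and 13.6 in LHX2 and 3.74, 1.22 and 34 in ZNF503 (3.54, standard error 0.31). DPP4, a brush border peptidase, stood at 3.51 (standard error 0.30), FETUB (fetuin B) and the hexokinase HKDC1 both at 3.22 and the amino acid transporter SLC7A7 at 3.13. HSPA6, a heat-inducible chaperone, stood apart from these roles with 3.01 (standard error 0.32) and at most 4.9 CPM in replicates 1 and 2. Below that count limit, 4 genes picked after their values were seen belong to stomach, gut, thyroid or liver. They were GUCY2C (3.22), the intestinal guanylin receptor, CLDN18 (3.58), a stomach and lung claudin, DUOX2 (3.62), an oxidase of thyroid and gut, and SLC10A1 (4.28), the bile acid uptake carrier. SLC10A1 had 2.57 to 6.23 CPM in replicate 3 and 0 to 1.03 in replicates 1 and 2, where most libraries had no read of it, so its fold is uncertain. A gene this low outside replicate 3 could pass the filter through it. The 4 genes rest on the same libraries as the split and carry no evidence of their own.

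Heart muscle RNA differed in the other direction and unevenly. Of 21 sarcomere genes, all tested, 5 were lower (TNNT2, TTN, LDB3, MYH6 and MYOM1), none was higher, and the median log2 fold change was -0.52, with 18 of 21 below 0. The median was -0.21 against replicate 1 alone and -0.75 against replicate 2 alone, both chosen after seeing the data. TNNT2 (cardiac troponin T, which anchors the troponin complex to the thin filament, chr1:201359014-201377680, GRCh38.p14) had 609, 354 and 202 CPM in TRAC, 518, 306 and 157 in LHX2 and 651, 359 and 198 in ZNF503 (-1.33, standard error 0.22). Its level thus also differed between replicates 1 and 2 (log2 fold change of replicate 1 over 2, 0.80), with replicate 3 below both in each target. TTN (titin, the molecular spring of the sarcomere) had 27000, 17100 and 6580 CPM in TRAC, 23100, 17900 and 9550 in LHX2 and 19400, 19100 and 8790 in ZNF503 (-1.31, standard error 0.20). MYH6, the alpha myosin heavy chain, had 9750, 14000 and 5070 CPM in TRAC, 10800, 12100 and 6520 in LHX2 and 11100, 13000 and 4920 in ZNF503 (-1.11, standard error 0.17). MYH7, the beta myosin heavy chain, differed by -0.10, ACTN2 by -0.26, MYL7 by -0.21 and ACTC1 by -0.48. As a share of counts the 21 genes held 1.86% to 2.6% in replicate 3 against 4.48% to 5.01% in replicates 1 and 2, and the ranges did not overlap. Most of this share was TTN and MYH6: the 21 genes together had 48356.1, 46171.6 and 20481.5 CPM in replicates 1, 2 and 3 of TRAC. The share therefore follows these genes more than the others, several of which differed little. The share of secretory genes moved the opposite way in the same libraries, and its part in the cardiac difference was not tested.

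Calcium and ion channel genes were similar, with 5 of 14 lower, none higher and a median of -0.75 (-0.47 against replicate 1 alone, -0.92 against replicate 2 alone). RYR2, the calcium release channel of the sarcoplasmic reticulum, had 1340, 1290 and 411 CPM in TRAC, 1210, 1340 and 640 in LHX2 and 1270, 1310 and 501 in ZNF503 (-1.34, standard error 0.14). Its replicates 1 and 2 lay within 1210 and 1340 CPM in all 3 targets, a far smaller spread than the gap to replicate 3. PLN (-1.50), which restrains the calcium pump, TRDN (-1.28) and CACNA1C (-1.26), the L-type calcium channel, were also among the lower genes, while ATP2A2, the pump itself, differed by -0.28. GJA1 (connexin 43, not restricted to muscle) was above in all 3 libraries at 0.97. Among cardiac transcription factors 1 of 14 was lower and 1 higher, with a median of -0.39. Of all genes tested, 3.02% were lower and 4.68% higher. IRX4, a ventricular factor, was lower (-1.33, standard error 0.18). NKX2-5 had -0.41, TBX5 -0.68, TBX20 -0.94 and GATA4 -0.17. Not all factors went this way: of the 14, 10 lay below 0 and 4 above, up to 1.22. All 3 libraries of replicate 3 stood above all 6 others for 3 of the 14 and below them for 6.

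Length of the transcript moved with these values. Across 13527 protein-coding genes, log2 fold change and transcript length had a Spearman correlation of -0.19 in VM, and of -0.14 over 13771 genes in AM. The points share the same libraries. The 7 sarcomere genes with a longest coding transcript of 5378 bases or more had a median of -1.04, with 4 lower, and the other 14 had -0.37, with 1 lower. For calcium and channel genes the medians were -1.26 (3 of 5 lower) and -0.42 (2 of 9 lower). All genes in that length group had a median of -0.07, and those of 2267 bases or fewer had 0.16. The part of transcript length in the cardiac differences was not tested.

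**Figure D3:**
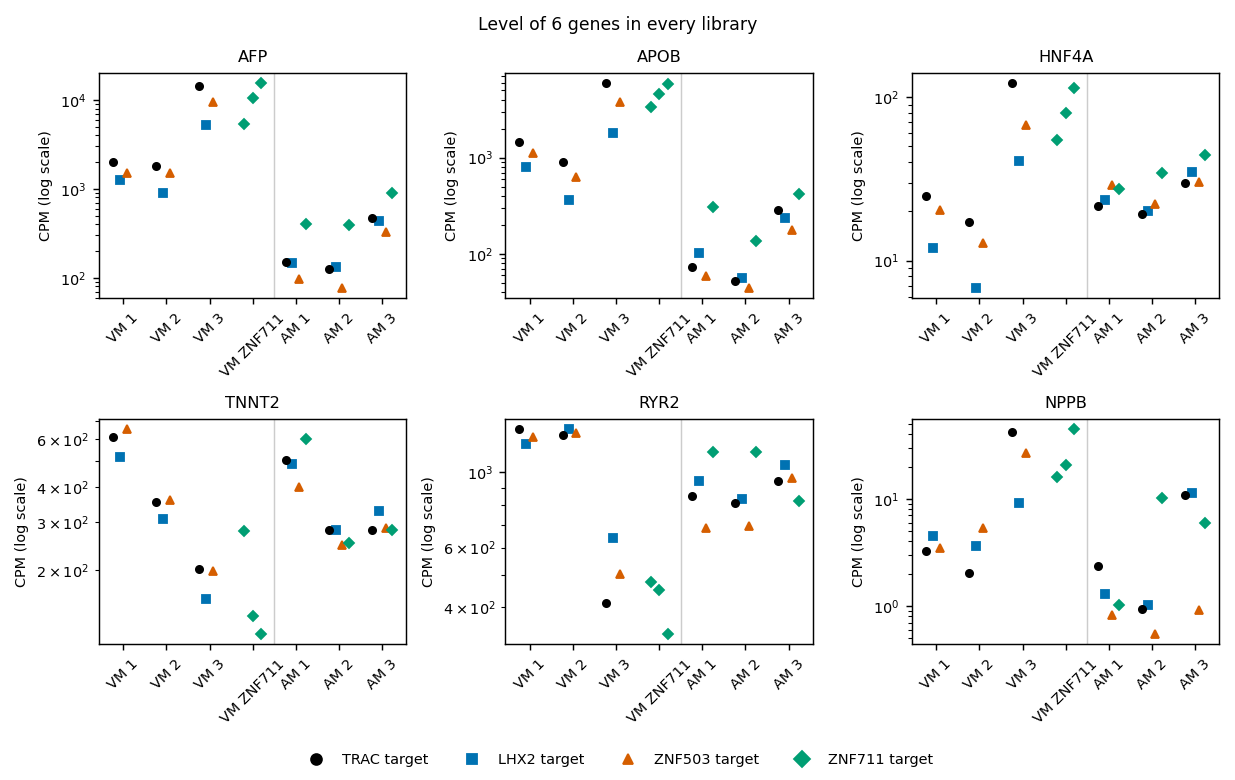
Level of AFP, APOB, HNF4A, TNNT2, RYR2 and NPPB in CPM (log axis) in all 24 libraries, placed by condition and replicate number, with the 3 VM ZNF711 libraries in a column of their own; each point is 1 library. AFP, APOB, HNF4A and NPPB are higher and TNNT2 and RYR2 lower in all 3 libraries of VM replicate 3 than in all 6 of VM replicates 1 and 2.

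Natriuretic peptide genes did not follow the sarcomere. NPPB, a wall-stress hormone of heart muscle, had 3.27, 2.05 and 42.2 CPM in TRAC, 4.49, 3.6 and 9.17 in LHX2 and 3.51, 5.29 and 27 in ZNF503 (2.68, standard error 0.37). NPPA, its atrial relative, had 5.93 to 10.6 CPM in replicates 1 and 2 and 12, 23.3 and 27.3 in replicate 3 of LHX2, ZNF503 and TRAC (1.39, standard error 0.23). CORIN, the protease that activates NPPA, was lower (-1.10, standard error 0.15). Of 10 atrial genes 8 passed the filter, some of them through their level in replicate 3, so no count is read from this list. NPPA, NR2F2 and VSNL1 (at no more than 4.92 CPM) were higher. NR2F1, an atrial nuclear receptor induced by retinoic acid, had 0 to 0.562 CPM in replicates 1 and 2, all at or under 3 counts, and 2.59, 4.3 and 6.85 CPM in LHX2, TRAC and ZNF503. NR2F2 had 18.8 to 25.9 CPM against 37.7, 42.8 and 49 in LHX2, ZNF503 and TRAC. Of 10 ventricular genes, IRX4, LRRC10 (-1.25) and CORIN were lower and none was higher, with a median of -0.40. Of the 10, 6 lay below 0 and 4 above. MYL2, the ventricular myosin light chain, had the highest log2 fold change of the list (1.02) but overlapped between the groups at 0.613 to 9.17 CPM.

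The lists of other cell types are to be read against 4.68% higher and 3.02% lower among all genes tested. Fibroblast and mesenchymal genes had a median of 0.89 with 5 of 13 higher (COL1A1, COL3A1, COL6A3, LUM and PDGFRB). COL3A1, a fibrillar collagen, had 497, 348 and 1290 CPM in TRAC, 510, 403 and 864 in LHX2 and 590, 482 and 1100 in ZNF503 (1.20, standard error 0.15). PDGFRA was below in all 3 (-0.57), and DCN and MEOX1 did not pass the filter. Of 8 smooth muscle genes TAGLN (1.34) and MYLK (1.27) were higher and ACTA2 differed by 0.04. No endothelial or endocardial gene of 12 was higher or lower, with a median of -0.03 and a summed level of 558.2 to 656.3 CPM in replicate 3 and 478.2 to 692.6 in replicates 1 and 2. Blood genes were near absent: 1 of 10, RUNX1, passed the filter, PTPRC, HBE1 and HBG1 had no count in any of these 9 libraries, and the summed level was 11.16 to 14.98 CPM in replicate 3 and 11.71 to 13.56 in the others. The 14 mitotic and S-phase genes all had values above 0 (median 0.43), with AURKB alone counted as higher. LIN28A, an RNA-binding protein of pluripotent and early embryonic cells, was 189, 227 and 212 CPM in replicate 3 of TRAC, LHX2 and ZNF503 against 64.2 to 108 in the others (1.33, standard error 0.10). POU5F1 was above in all 3 at 0.86 and NANOG did not pass the filter. Of 8 pluripotency genes listed 6 passed the filter and 1 was higher, with a median of 0.58. The lowest of the 6 was at -1.37, with overlap between the groups, and the other 5 lay above 0. In the BMP and nodal list, CER1 (2.18), BMP2 (1.11) and BMP4 (1.05) were higher and LEFTY2 (-1.37) was lower of 10 tested.

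The 12 genes with the lowest log2 fold changes, at 50 or more counts in each of the 6 other libraries, were GADL1, EGFEM1P, CFAP70, CPNE4, ADGRG2, FBXO40, MIR99AHG, DNAJC5G, MSS51, GREP1, SERTM2 and MOXD1. GADL1, a decarboxylase of muscle, had 48.8, 75.4 and 5.94 CPM in TRAC, 41.8, 53.4 and 17.5 in LHX2 and 37.4, 46.8 and 7.28 in ZNF503 (-2.35, standard error 0.30). FBXO40 (-1.85) and MSS51 (-1.76) are also known from striated muscle. EGFEM1P (-2.24) is a pseudogene and MIR99AHG (-1.79) a non-coding host of microRNAs. Protein-coding genes made up 95.3% of the higher genes, 51.1% of the lower ones and 85.2% of all tested. Of 1610 long non-coding or unspliced genes, 173 (10.7%) were lower and 21 (1.30%) higher, against 1.81% and 5.24% of 13543 protein-coding genes.

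Non-coding RNA also set replicates 1 and 2 apart. Between these, 708 genes were at least 2-fold higher in replicate 1 with no overlap of the 3 and 3 libraries (4.46% of those tested) and 118 were lower (0.743%), and 274 of the 708 were long non-coding or unspliced genes. GENCODE lincRNA genes held 2.17% to 2.97% of counts in VM replicate 1, 1.42% to 1.53% in replicate 2 and 1.54% to 1.65% in replicate 3. In AM they held 1.86% to 2.44%, 1.05% to 1.68% and 1.28% to 1.8%. Antisense genes held 0.736% to 0.86%, 0.596% to 0.631% and 0.55% to 0.57% in VM, in the same order, and counts from antisense genes cannot be told from their sense partners where the counting strand is not given. The part of this in the count of lower genes was not tested; against replicate 1 alone 1285 genes were lower, and against replicate 2 alone 561.

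**Figure D4:**
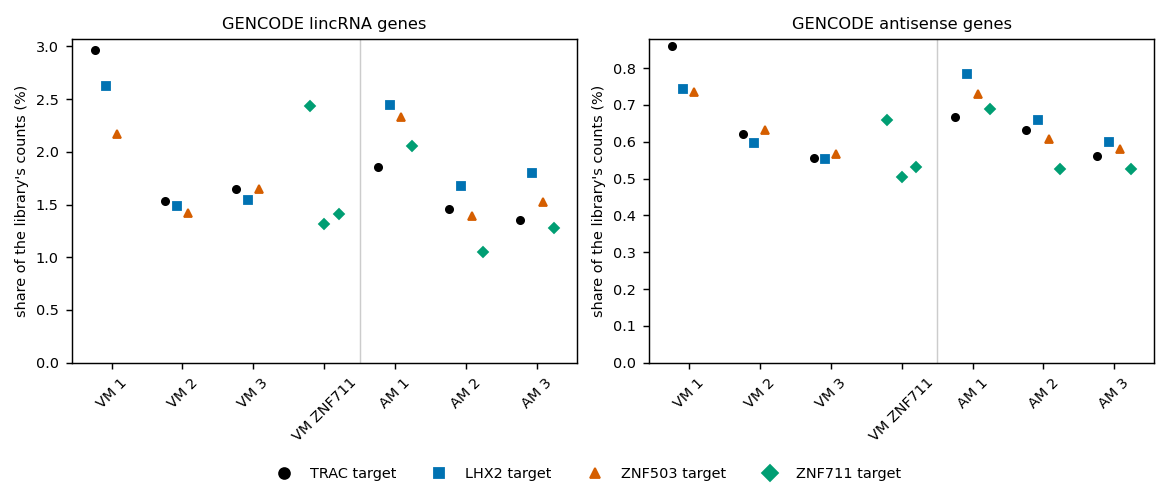
Share of each library's counts (%) in GENCODE lincRNA genes (left) and antisense genes (right); each point is 1 library, placed by condition and replicate number, with the 3 VM ZNF711 libraries in a column of their own. The 3 libraries of VM replicate 1 lie at 2.17% to 2.97% of lincRNA, above all of VM replicates 2 and 3.

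VM ZNF711 libraries, left out of the contrast, lay with replicate 3 on the first component whatever their own number. On the second component VM ZNF711 replicate 1 scored 18.3, within the range of the other replicate 1 libraries, and replicates 2 and 3 scored -7.1 and -2.9. Its lincRNA share was 2.43%, also within that of VM replicate 1, against 1.32% and 1.41%. All 3 VM ZNF711 libraries were above the 6 libraries of replicates 1 and 2 for 611 of the 744 higher genes (82.1%), where 11.9% of all genes tested met this. All 3 were below them for 258 of the 479 lower genes (53.9%), against 8.38% of all genes. AFP had 5300, 10500 and 15300 CPM in VM ZNF711 replicates 1, 2 and 3, and RYR2 had 476, 451 and 334 CPM. The median log2 difference of replicate 3 from replicates 1 and 2 within ZNF711 was 0.53 over the higher genes and -0.46 over the lower ones. The contrast and this target cannot be told apart in those 3 libraries, and they share with the contrast the 6 libraries they were set against.

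The same contrast in AM, tested with the edgeR quasi-likelihood test over 12 libraries with target as a block, called 231 of 16392 genes higher in replicate 3 (1.41%) and 65 lower (0.397%) at an adjusted p (Benjamini-Hochberg) below 0.05. Secretory genes rose here too, from a far lower level: 13 of 21 tested were called higher, none lower, with a median log2 fold change of 1.47 where the median of all genes was 0. AFP had 149, 125 and 470 CPM in replicates 1, 2 and 3 of TRAC, 146, 133 and 438 CPM with LHX2 targeted, 97.1, 76.4 and 328 CPM with ZNF503 targeted and 404, 395 and 896 CPM with ZNF711 targeted. Replicate 3 was the highest in each of the 4 targets (log2 fold change 1.63, standard error 0.10, edgeR adjusted p 7.49e-11). Replicates 1 and 2 of ZNF711 lay within the range of replicate 3 of the other targets. APOA4 had 0.164 to 4.28 CPM in replicates 1 and 2 and 3.98 to 56.8 CPM in replicate 3 (3.94, standard error 0.32, edgeR adjusted p 1.63e-08). The other large rises were of AHSG, APOC3, RBP4 (3.19, edgeR adjusted p 0.000214) and PLG, plasminogen, at 3.16 (0.000247). AHSG had 0 to 6.11 CPM in replicates 1 and 2 and 2.27 to 26.7 in replicate 3 (edgeR adjusted p 5.35e-05). APOC3 had 0 to 1.08 and 1.11 to 7.78 CPM (edgeR adjusted p 0.00371). Several libraries of replicates 1 and 2 had no count of AHSG, APOC3 or PLG, so the size of these folds is uncertain. Genes this low outside replicate 3 could pass the filter through it. The count of 13 and the median of 1.47 therefore describe the members that passed. The remaining called members were APOA1, APOA2, APOB, APOE, FGA, FGG, SERPINA1 and VTN. ALB (0.26, edgeR adjusted p 0.887), AMBP (0.03, 0.956) and MTTP (0.34, 0.222) were not called.

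Other groups were tested in AM in the same way. Of 15 endoderm transcription factors tested none was called higher and ONECUT1 was called lower (-1.03, edgeR adjusted p 0.0266), with a median of 0.30. HNF4A was at 0.50 (edgeR adjusted p 0.0576). Of 15 epithelial genes 7 rose, with a median of 0.49, among them KRT19 (0.63, edgeR adjusted p 0.000825) and EPCAM (0.51, 0.00158). Sarcomere genes had a median of 0.38 with 4 of 20 called higher (MYL4, MYL7, ACTC1 and MYOZ2) and none lower, TNNT2 had -0.37 (edgeR adjusted p 0.628) and RYR2 0.12 (0.63). The summed sarcomere level was higher in replicate 3 by 0.28, 0.39 and 0.48 on the log2 scale in TRAC, LHX2 and ZNF503, and differed by -0.36 in ZNF711. Whether the VM and AM effects differ was not tested, since the VM split had been chosen on its values. The largest falls in AM were of PHB1P19, NSRP1P1, ENSG00000290051, HGF and TBX1. TBX1, a factor of pharyngeal mesoderm, had 17.5, 28 and 3.99 CPM in replicates 1, 2 and 3 of TRAC, 19.2, 29.6 and 2.84 CPM with LHX2 targeted, 27.7, 31.5 and 2.77 CPM with ZNF503 targeted and 5.09, 4.21 and 2.33 CPM with ZNF711 targeted. It fell by 2.69 on the log2 scale (standard error 0.29, edgeR adjusted p 3.23e-06), and its replicates 1 and 2 were already low where ZNF711 was targeted. HGF, a growth factor of mesenchymal cells, fell by 2.98 (edgeR adjusted p 0.0101) and showed the same, with 1.63, 5.82 and 2.33 CPM in ZNF711 against 27.5 to 47 CPM in replicates 1 and 2 of the other targets. Of 15281 genes tested in both conditions, 613 were higher and 433 lower in VM. Among these genes 227 were called higher in AM. Of the 227, 75 (33%) were also higher in VM, which is 12.2% of the 613, and 1 (0.441%) was lower. Of 58 called lower in AM, 2 (3.45%) were also lower in VM, which is 0.462% of the 433. Another 2 of the 58 (3.45%) were higher in VM, so the lower genes gave the same count in either direction. By sign alone, 39 of the 58 (67.2%) had a VM log2 fold change below 0. Of the 227 called higher, 182 (80.2%) had one above 0. Of all 15887 genes tested in VM, 7792 lay above 0 and 8095 below.

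**Figure D5:**
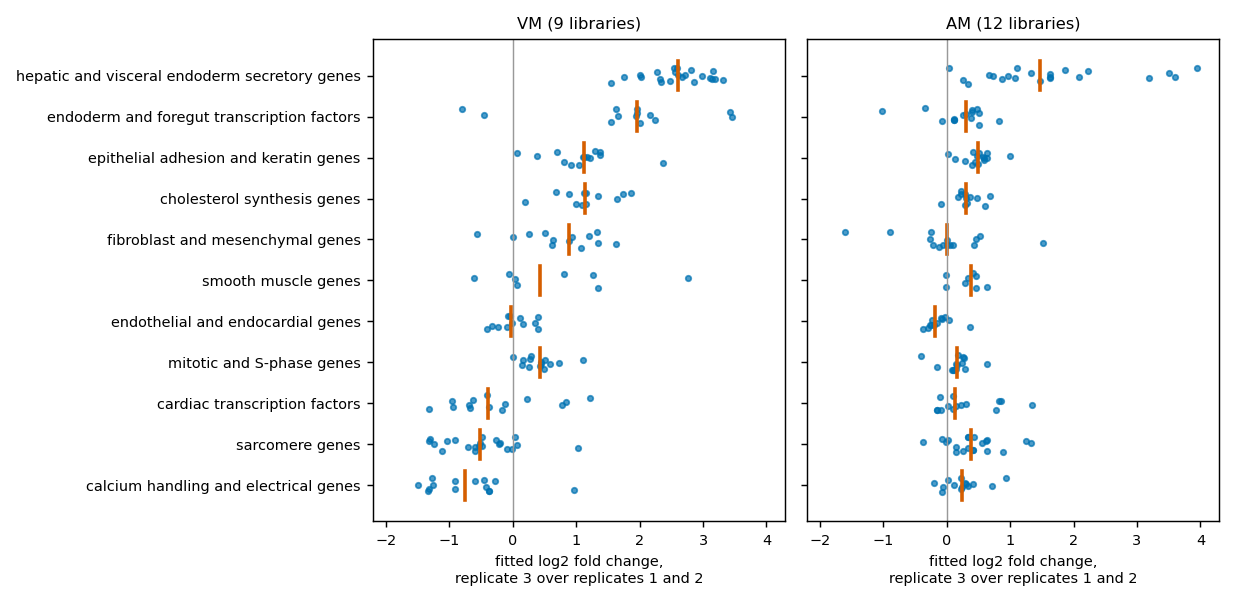
Fitted log2 fold changes of replicate 3 over replicates 1 and 2 for the genes of 11 lists in VM (left) and AM (right); each point is 1 gene that passed the filter, bars are list medians, and points are spread vertically for sight only. Medians of the secretory genes are 2.60 and 1.47, of the endoderm transcription factors 1.96 and 0.30 and of the sarcomere genes -0.52 and 0.38. The genes that passed differ between VM and AM, with 13 and 15 of the endoderm transcription factors.

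The AM counts moved with single libraries. Without replicate 3 of AM TRAC, AM ZNF503 or AM LHX2, 63, 77 and 99 genes were called higher and 12, 9 and 13 lower, and without AM ZNF711 replicate 2 the counts were 418 and 218. Lower genes numbered 43 without AM LHX2 replicate 1, 100 without AM ZNF503 replicate 2, 100 without AM ZNF711 replicate 1 and 121 without AM ZNF711 replicate 3. With no term for target, edgeR called 0 genes in either direction, with 887 higher and 978 lower at an unadjusted p below 0.05. Secretory genes called higher in AM numbered 11 to 15 with any 1 of the 12 libraries left out, and 0 with no target term.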

How the data were processed

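RNA from 24 libraries was analysed, starting from the table of raw counts per gene that the authors deposited. Reads were aligned with STAR to GRCh38, per the submitters' processing notes; version, counting program, strand setting and annotation release are not given in the sources used here. The labels give both polyA RNA and ribosomal RNA removal (KAPA RiboErase, Roche). No column was left unmatched. The members and the gene lists were chosen with earlier results of these data known.

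Scaling factors (trimmed mean of M values, TMM) were computed over all 24 libraries with edgeR 4.0.16 in R 4.3.3. Genes passing filterByExpr were fitted by robust quasi-likelihood with target as a block (5 residual degrees of freedom in VM, 7 in AM). In VM a gene was called at 2-fold with no overlap of CPM, with no test. In AM the two-sided edgeR test was adjusted by Benjamini-Hochberg and called below 0.05. Differences per target used log2 CPM with a prior count of 2. The rule named the 12 highest and 12 lowest genes in VM with at least 50 counts in each library of the higher side and no overlap, the 5 largest called rises and falls in AM, and the genes of 26 lists, of which some single genes are not reported here. Symbols were found for 62686 of 62757 identifiers. Gene types and lengths were from GENCODE 29. The floor of 3 counts was 0.445 to 0.96 CPM per library, for counting error only. Alternatives were other scalings, filters, DESeq2 1.42.0, other designs and leaving out each library. The AM fit was tested on simulated data.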

Additional observations from a re-analysis of the deposited data

Results flagged for a closer look

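Each of 62 quantities (summed levels of the lists and levels of the named genes and markers) was checked for a single library far from the rest of its group, in 186 groups. A gap this wide was met in 8 of them, and chance alone gives about 1 in 20. Among AM replicates 1 and 2, AM ZNF503 replicate 1 had a summed level of mitotic and S-phase genes of 380 CPM. AM ZNF711 replicate 1 had 310 CPM of APOB and 0.204 CPM of MS4A10, the latter under its floor of 3 counts (0.611 CPM). In the same group AM ZNF503 replicate 2 had 4.01 CPM of HSPA6. Among the libraries of AM replicate 3, AM ZNF503 had 332 CPM of the targeted genes together and 1.48 CPM of FETUB, and AM LHX2 had 329 CPM of TNNT2. The sum of the targeted genes was high in all 3 libraries labelled AM ZNF503 (321.6, 417.8 and 332.2 CPM), against 127.6 to 186.2 CPM in the other 9 AM libraries. HGF had 0.204 CPM in VM TRAC replicate 1, where the other 5 libraries of VM replicates 1 and 2 had no count of it. This value too is under the library's floor of 3 counts (0.613 CPM).

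For 3 quantities the log2 difference of replicate 3 from replicates 1 and 2 had one sign in all 3 VM targets and the other in all 4 AM targets. The difference between VM and AM was not tested. The summed level of atrial genes had a median log2 difference of -0.13 in VM and 0.43 in AM. In VM it was no clear shift, at -0.02, -0.13 and -0.26 in TRAC, LHX2 and ZNF503. Replicate 3 lay between replicates 1 and 2 in VM TRAC and VM LHX2, and AM ZNF711 differed by only 0.07. The summed level of neural genes had 0.57 in VM and -0.59 in AM. ADGRG2, an adhesion receptor, had -2.09 in VM and 0.87 in AM.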

How the results depend on the processing

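No paired analysis was possible because the replicate number is itself the contrast. The VM counts of 744 higher and 479 lower genes became 74 and 77 with VM ZNF711 added to the targets, where no overlap had to hold over 12 libraries. With TRAC alone they were 1365 and 1259. Lower genes numbered 1025 by fold alone, 845 with LHX2 alone, 1040 with ZNF503 alone and, chosen after seeing the data, 1285 against replicate 1 alone and 561 against replicate 2 alone. Leaving out 1 library gave 753 to 1075 higher and 490 to 834 lower. In AM, 231 higher and 65 lower genes became 381 and 216 with no filter, 438 and 235 without AM ZNF711, and 0 and 0 with no target term. Against replicate 1 alone, chosen after seeing the data, they were 1381 and 1173, and 118 were lower against replicate 2 alone. DESeq2 called 146 lower. Leaving out 1 library gave 63 to 418 higher and 9 to 218 lower. The cause of these shifts was not tested beyond the overlap condition. The VM median of all genes, -0.01, was 0.02 with TRAC alone and 0.01 with LHX2 alone, with ZNF503 alone or against replicate 1 alone. The medians of 8 lists recomputed in VM changed sign in 0 fits. With 1 library left out 10 moved by more than the spread and 62 did not, and under the other settings 23 moved and 81 did not. Of the AM fold changes recomputed under those other settings, 12 were no longer called and 71 kept their side of the threshold. Genes with few counts, such as NR2F1 and SLC10A1, have uncertain folds at this depth.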
